A study of Mus musculus with 576 samples.

Results

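Neutrophil granule genes were followed through 6 plates of single mouse fetal liver cells grown with or without dexamethasone. The genes were Mpo, Elane, Prtn3, Ctsg, Ms4a3, Fcnb, Lcn2, Ngp, S100a8 and S100a9, 10 of the 49466 genes in the deposited counts, each found once by its symbol. The dexamethasone cells had 100 nM of this synthetic glucocorticoid for 24, 48 or 72 hours (days 1, 2 and 3), and the control cells had none. Both came from E14.5 embryos of the C57/Bl6J strain and shared one culture medium, with SCF at 100 ng/mL, IGF1 at 40 ng/mL and EPO at 2 U/mL. Before culture, liver cells bound by antibodies to Ter119, CD41, CD16/32, Sca-1, CD11b, Ly-6G, CD45R or CD3e had been removed. The rest had been sorted on CD117, CD71 and CD24 to enrich BFU-E, early progenitors of the red cell lineage. Each combination of day and treatment was 1 plate, and the labels name no animal or culture behind a plate. The antibodies to Ly-6G, CD11b and CD16/32 bind cells of the granulocyte and monocyte lines, so the sort was set against the cells that normally carry these genes.

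Neutrophils fill their granules in sequence as they mature in the fetal liver and later in the bone marrow. Azurophil or primary granules form first, at the promyelocyte stage, and hold myeloperoxidase (Mpo) and the serine proteases neutrophil elastase (Elane), proteinase 3 (Prtn3) and cathepsin G (Ctsg). Specific or secondary granules follow, with proteins such as lipocalin 2 (Lcn2), an iron-siderophore binder, and the neutrophilic granule protein Ngp. S100a8 and S100a9 form the calprotectin dimer of the neutrophil cytosol. Ms4a3, a membrane protein, marks granulocyte-monocyte progenitors, and Fcnb encodes ficolin B, a lectin of maturing granulocytes and monocytes.

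The 10 genes lie on 7 chromosomes of GRCm38, and all 10 identifiers matched the GENCODE vM21 annotation. The azurophil genes are Mpo at chr11:87793581-87804413 (plus strand), Elane at chr10:79886247-79888215 (plus strand), Prtn3 at chr10:79874476-79883174 (plus strand) and Ctsg at chr14:56099881-56102574 (minus strand). The others are Ms4a3 at chr19:11629496-11640851 (minus strand), Fcnb at chr2:28076378-28084885 (minus strand), Lcn2 at chr2:32384633-32388252 (minus strand), Ngp at chr9:110419747-110423012 (plus strand), S100a8 at chr3:90668978-90670035 (plus strand) and S100a9 at chr3:90692632-90695721 (minus strand). Prtn3 and Elane are neighbours on chromosome 10, with 3.07 kb between them, and S100a8 and S100a9 lie 22.6 kb apart on chromosome 3 on opposite strands. Promoter windows of 3 azurophil genes and of Fcnb, Ngp and S100a9 are shown as examples, from groups that were carried by different numbers of cells. All 10 genes matched RefSeq entries. Each window below holds the 250 bases before the RefSeq start site (GRCm38.p6), 5′ to 3′ on the gene's strand. Capitals mark TTNNGCAA, a core of C/EBP binding sites, GAGGAA for PU.1, TGTGGT for RUNX and TAACNG for MYB, on either strand. The azurophil windows shown are Mpo at chr11:87793534-87793783 (plus strand), Prtn3 at chr10:79879417-79879666 (plus strand) and Ctsg at chr14:56102575-56102824 (minus strand). The others are Fcnb at chr2:28084879-28085128 (minus strand), Ngp at chr9:110419558-110419807 (plus strand) and S100a9 at chr3:90695722-90695971 (minus strand).
Mpo: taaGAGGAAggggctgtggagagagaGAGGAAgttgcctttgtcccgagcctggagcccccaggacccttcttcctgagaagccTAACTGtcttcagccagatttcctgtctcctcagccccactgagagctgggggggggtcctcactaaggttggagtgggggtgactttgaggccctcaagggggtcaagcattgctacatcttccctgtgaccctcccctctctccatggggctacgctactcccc
Prtn3: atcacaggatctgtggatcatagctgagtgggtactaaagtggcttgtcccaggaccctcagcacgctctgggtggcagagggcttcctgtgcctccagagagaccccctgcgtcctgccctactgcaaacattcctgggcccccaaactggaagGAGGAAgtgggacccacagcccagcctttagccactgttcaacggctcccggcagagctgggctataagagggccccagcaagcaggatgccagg
Ctsg: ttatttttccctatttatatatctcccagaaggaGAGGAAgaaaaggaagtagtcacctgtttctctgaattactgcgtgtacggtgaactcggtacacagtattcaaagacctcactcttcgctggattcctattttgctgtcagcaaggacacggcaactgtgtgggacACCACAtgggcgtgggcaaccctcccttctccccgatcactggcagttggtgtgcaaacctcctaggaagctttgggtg
Fcnb: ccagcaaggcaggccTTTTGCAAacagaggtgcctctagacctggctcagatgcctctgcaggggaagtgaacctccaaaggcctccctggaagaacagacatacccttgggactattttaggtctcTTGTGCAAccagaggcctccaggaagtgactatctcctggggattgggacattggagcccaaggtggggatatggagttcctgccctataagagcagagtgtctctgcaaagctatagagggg
Ngp: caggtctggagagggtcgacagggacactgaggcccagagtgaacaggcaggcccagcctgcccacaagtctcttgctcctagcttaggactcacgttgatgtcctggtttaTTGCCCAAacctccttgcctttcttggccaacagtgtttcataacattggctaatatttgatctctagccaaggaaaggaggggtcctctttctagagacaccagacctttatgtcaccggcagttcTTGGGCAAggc
S100a9: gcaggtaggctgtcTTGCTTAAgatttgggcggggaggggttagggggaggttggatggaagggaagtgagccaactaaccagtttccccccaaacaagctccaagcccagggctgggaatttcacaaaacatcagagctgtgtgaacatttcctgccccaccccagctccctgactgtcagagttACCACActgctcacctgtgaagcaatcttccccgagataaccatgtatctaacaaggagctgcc
The PU.1 letters were found in the windows of 6 of the 10 genes, namely Mpo, Elane, Prtn3, Ctsg, Lcn2 and S100a8, and in 23.3% of 32851 mouse promoter windows of the same length. The C/EBP letters were found in Fcnb, Lcn2, Ngp and S100a9, and in 9.56% of all windows. RUNX letters were in Ctsg and S100a9 (14.05% of all windows) and MYB letters in Mpo and Elane (19.8% of all windows). AGATAA, the GATA site letters of erythroid genes, was in the S100a9 window and in 9.99% of all windows. No marked motifs overlapped in the 6 windows printed. The printed windows hold either PU.1 or C/EBP letters, a split that the 10 genes do not keep. Lcn2 had both, S100a8 had PU.1 letters without C/EBP letters, and Ms4a3 had neither. These letters describe the windows, and nothing was measured on the factors' binding.

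Of 575 wells, 563 were kept as cells, 92 to 96 on each plate, with 66140 to 3757116 counts a cell and 88178493 to 116623968 counts a plate. A count is a read, because no molecular identifier is stated, so intervals cover counting error only. The strand setting of the counting is not given, so reads of a gene and of an antisense transcript cannot be told apart. Each well carries a pair of index sequences, and wells of a plate that share 1 of them differed from the others in these genes. Where at least 1 cell of a plate had 100 CPM of a gene (CPM, the counts of a gene per 1000000 counts of the well or plate), 547 of the 1362 cells sharing 1 index with such a cell had a count of that gene (40.2%). Of the 1690 cells sharing none, 38 had one (2.25%). The share was larger among index-sharing cells in 30 of 34 pairs of gene and plate, equal in 1 and smaller in 3, which were Prtn3 and Ms4a3 on the control plate of day 1 and Ms4a3 on the dexamethasone plate of day 3. Together, the index-sharing cells of a pair held a median of 0.67% of the counts of the high cells, and at most 37.9%. That maximum was 53 Elane counts of 1 cell at 47.1 CPM on the dexamethasone plate of day 3. With high cells set at 1000 CPM the median was 1.804% and the maximum 63.7%. The latter, for Prtn3 on the dexamethasone plate of day 1, included a cell at 219.6 CPM. Both maxima thus hold cells with raised levels under the set limit. Over all pairs at 1000 CPM, 62.2% of sharing cells had a count, against 9.35% of the others. Genes are therefore called present in a cell at 10 CPM or more. The main results per cell are also given after a subtraction, a step chosen after the data were seen. From each well, 1% of the counts of the wells sharing 1 index with it was taken. The shares above are totals over all sharing cells of a pair, so this step can take more than those cells held. For Ngp on the control plate of day 3, 17 sharing cells together held 195 counts, beside 24724 in the cell at 1000 CPM or more. Marker lists, pairs of genes and correlations were not subtracted.

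**Figure D1:**
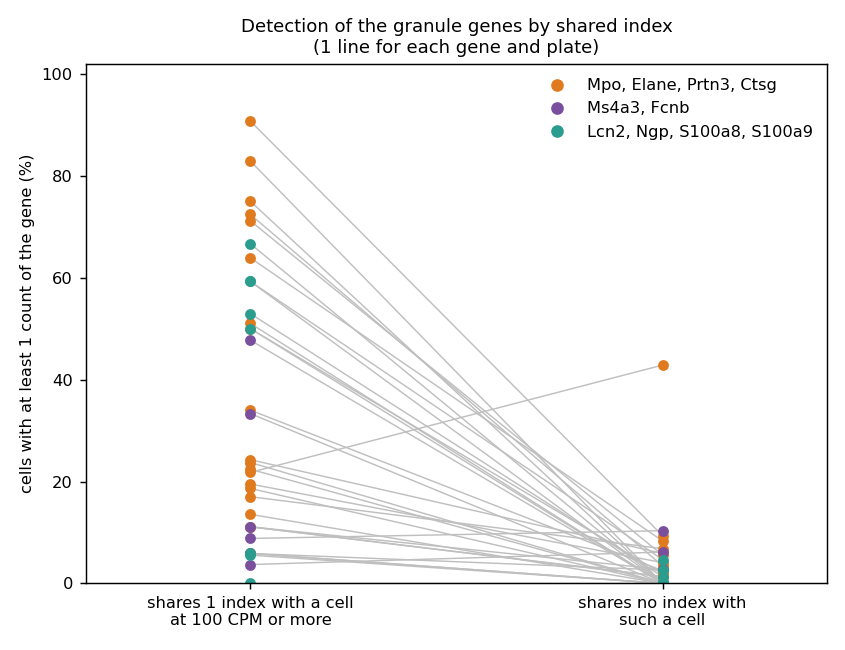
Share of cells with at least 1 count of a granule gene (percent, y axis) among cells that share 1 index with a cell at 100 CPM or more of that gene (left) and among cells that share none (right). Each line is 1 gene on 1 plate, 34 in all, coloured by the gene's role, and in 30 of them the left share is larger.

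Granule transcripts were abundant in 5 of the 6 plate sums, and apart from Lcn2 nearly absent from the control plate of day 2. Summed over the 10 genes, the level was 328, 533 and 499.6 CPM on the dexamethasone plates of days 1, 2 and 3, against 1346, 33.9 and 1834 CPM on the control plates. The sum was thus lower with dexamethasone on days 1 and 3 and higher on day 2. Without the highest cell of each plate it was 219.6, 237 and 332 CPM with dexamethasone, against 1062, 3.03 and 1211 CPM in control, in the same directions. A plate sum alone cannot tell fewer cells from less RNA per cell, and values of both are given further on.

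The azurophil genes shared these directions within each day. Mpo, whose enzyme makes hypochlorous acid, stood at 276, 425 and 441 CPM on the dexamethasone plates of days 1, 2 and 3, against 1192, 2.39 and 1059 CPM on the control plates. The 95% Poisson interval of the lowest of these values, control day 2, was 2.11 to 2.70 CPM from 258 counts. Cell 78 of that plate held 96.5% of these counts, and 4 of its 96 cells had any. The interval covers the counting of reads and not the spread between cells. Prtn3 had 22.6, 23.9 and 24.6 CPM with dexamethasone, against 52.4, 0.324 and 88.9 CPM in control. For both genes the 3 dexamethasone plates lay between the lowest and the highest control plate. Ctsg was at 15.9, 39.6 and 18.6 CPM with dexamethasone, against 54.1 CPM, no count and 197 CPM in control. Elane had 0.341, 16.9 and 1.92 CPM with dexamethasone, against 15.98 CPM, no count and 57.4 CPM in control. A plate without a count allows up to 3 counts, or 0.0278 CPM on the control plate of day 2. For each of the 4 azurophil genes, the dexamethasone plate was lower on days 1 and 3 and higher on day 2.

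Per kilobase of exon, Mpo was the most abundant azurophil gene on each plate. On day 3 its level was 129 CPM per kb with dexamethasone and 309 CPM per kb in control. Ctsg followed there at 18.04 CPM per kb with dexamethasone and 191 CPM per kb in control, then Prtn3 at 14.2 and 51.3 CPM per kb. Elane was at 1.96 CPM per kb with dexamethasone and 58.4 CPM per kb in control, below Prtn3 in the dexamethasone plate and above it in the control plate. With 1 plate for each value, neighbours in this order were not tested.

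Ms4a3 and Fcnb, the genes of the progenitor and promyelocyte stages, differed in how early they appeared. Ms4a3 had 0.914, 7.03 and 4.37 CPM on the dexamethasone plates of days 1, 2 and 3, against 9.75, 0.222 and 68.4 CPM on the control plates. It was counted on all 6 plates, with the same direction within each day as the azurophil genes. Fcnb had no count on either plate of days 1 and 2, and 1.15 CPM with dexamethasone on day 3 against 33.6 CPM in control.

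The later genes were concentrated on the control plate of day 3. Ngp had no count, 0.122 and 0.219 CPM on the dexamethasone plates of days 1, 2 and 3, against no count, no count and 222 CPM on the control plates. S100a9 was counted on 2 plates, at 0.0608 CPM (7 counts) with dexamethasone on day 2 and 85.8 CPM in control on day 3. S100a8 had no count, 3.79 and 1.74 CPM with dexamethasone, against 0.346 CPM, no count and 61.4 CPM in control. Lcn2 departed from the other 9 genes on day 2. It had no count, no count and 4.94 CPM with dexamethasone, against no count, 32.7 and 32.98 CPM in control, so that its day 2 control plate was as high as its day 3 control plate.

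**Figure D2:**
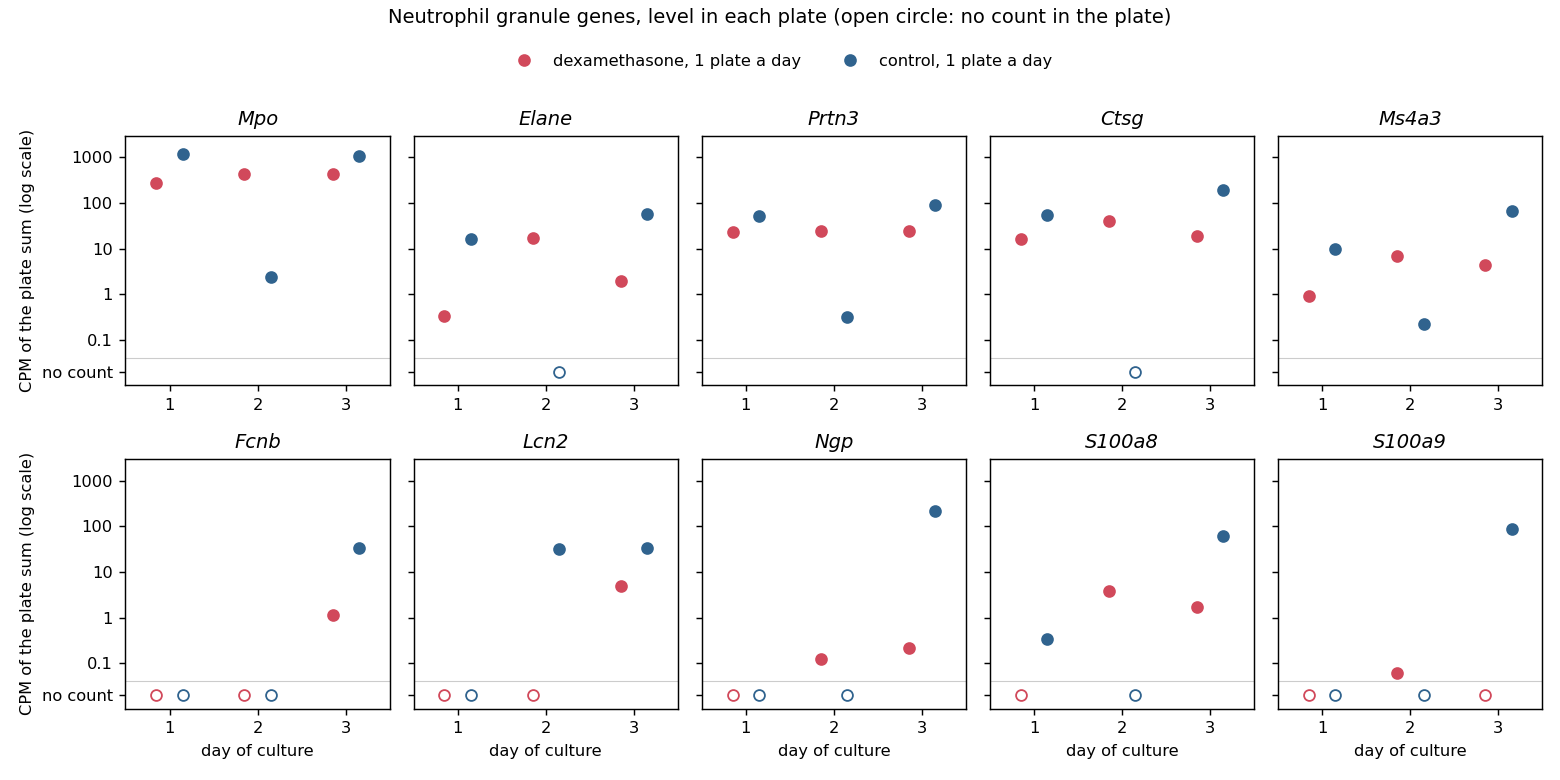
Level of each granule gene in the plate sums (CPM, log scale, y axis) by day of culture (x axis), with 1 point for each plate, dexamethasone in red to the left of control in blue. Open circles below the grey line are plates without a count. Mpo, Elane, Prtn3, Ctsg and Ms4a3 lie higher with dexamethasone on day 2 alone.

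Of the 10 genes, 9 passed the filter on low counts that edgeR's design needs, and S100a9 did not. A gene with counts on few plates passes through its high plates, so counts over the 9 genes are a description. Over the 3 days, edgeR's quasi-likelihood test with day and dexamethasone as terms called 0 of these 9 genes for dexamethasone at an adjusted p of 0.05, against 0 of 20040 genes (0%). At an unadjusted p of 0.05 it passed 2070 of all genes tested. DESeq2 called 1279 genes (6.38%), 2.55% higher and 3.83% lower, and 0 of the 9. The smallest adjusted p of the 9 was that of Fcnb, 0.457 by edgeR, whose log2 fold change of -4.62 had an SE of 0.81 and rests on the day 3 plates alone. For Mpo the fitted log2 value was -0.09 with an SE of 2.42, and for Prtn3 0.01 with an SE of 1.90, with opposite directions between the days in both. Elane had -3.56 (SE 4.21), Ctsg -0.88 (SE 3.14) and Ms4a3 -2.10 (SE 2.57). Lcn2 had -6.13 (SE 3.24), Ngp -5.57 (SE 5.76) and S100a8 -3.10 (SE 4.14). These standard errors reached or exceeded the change for 7 of the 9 genes, the exceptions being Fcnb and Lcn2. The median of the 9 log2 fold changes was -3.10, beside 0.07 over all genes tested.

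Within a day, the ratios of 1 plate to 1 plate were large in both directions and have no test. On day 1, 0 of the 9 genes were at least 2-fold higher with dexamethasone and 6 were at least 2-fold lower, against 13.3% and 12.1% of the 20040 genes. On day 2, 7 were higher and 1, Lcn2, was lower, against 19.9% and 15.1% of all genes. On day 3, 0 were higher and 9 lower, against 21.7% and 13.7% of all genes. The control plate of day 3 held 3766 of 3881 Fcnb counts, 24920 of 24956 Ngp counts and 6886 of 7528 S100a8 counts. For these genes the day 3 direction follows from where their counts lie, so the number lower on day 3 is a description. Mpo was 4.32-fold lower with dexamethasone on day 1, 178-fold higher on day 2 and 2.399-fold lower on day 3. Ctsg was 3.40-fold lower on day 1, at least 1423-fold higher on day 2 and 10.6-fold lower on day 3. The bound counts the control plate of day 2 at 3 counts. The 9 genes were counted in overlapping cells, so they are not 9 separate observations.

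Between days, edgeR called 0 of the 9 genes for day 3 against day 1 and 0 for day 2 against day 1, with 0% of all genes called in both. The smallest adjusted p among the 9 was 0.225 for day 3, for Fcnb, and 0.458 for day 2, for Lcn2. The numbers of all genes at an unadjusted p of 0.05 were 2907 and 2446. DESeq2 called 10.5% of all genes for day 3 against day 1, 5.38% higher and 5.16% lower, and 1 of the 9, Ngp, higher at an adjusted p of 0.0126. Between days 2 and 1 it called 7.73% of all genes, 4.12% higher and 3.61% lower, and 0 of the 9. That call rests on 1 cell, which held 99.1% of the Ngp counts of the study.

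Few cells carried the counts, and fewer for the later genes than for the azurophil genes. For Mpo, 22 of 563 cells held 90% of its 352273 counts, and the highest cell held 12.3%. Prtn3 reached 90% with 17 cells, Ctsg with 14 and Elane with 5. Ms4a3 reached it with 7 cells and Fcnb with 2. S100a8 reached it with 3 cells, Lcn2 and S100a9 with 2 each, and Ngp with 1. A pair of cells of the control plate of day 3 led every list. Cell 57 was the highest cell of Mpo, Elane, Prtn3, Ctsg and Ms4a3, with 57.2% of all Elane counts and 31.7% of all Ctsg counts. Cell 62 was the highest of Fcnb, Lcn2, Ngp, S100a8 and S100a9, with 82.3%, 47.6%, 99.1%, 52.8% and 72.1% of their counts in that order.

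**Figure D3:**
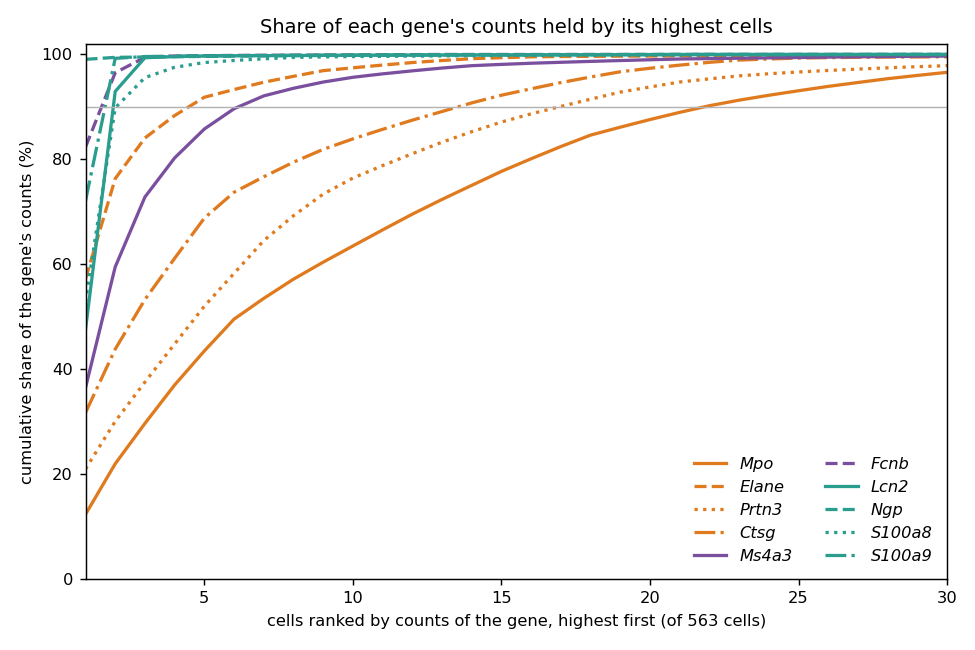
Cumulative share of each gene's counts (percent, y axis) over its highest cells in rank order (x axis), out of 563 cells. The grey line is at 90%, which Ngp passes with 1 cell and Mpo with 22.

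A cell was counted as granule-gene positive when at least 3 of the 10 genes reached 10 CPM. By this rule 30 of 563 cells were positive, and they held 93.3% of all counts of the 10 genes. On day 1, 5 of 94 dexamethasone cells were positive (5.32%, exact Clopper-Pearson 95% interval 1.75 to 11.98%), against 8 of 94 control cells (8.51%, 3.75 to 16.1%). On day 2, 4 of 92 dexamethasone cells were positive (4.35%, 1.20 to 10.8%), against 0 of 96 control cells, which allows a share of up to 3.125% by the limit of 3 cells and 3.77% by the exact interval. On day 3, 5 of 94 dexamethasone cells were positive (5.32%, 1.75 to 11.98%), against 8 of 93 control cells (8.60%, 3.79 to 16.2%). These intervals cover the counting of cells on 1 plate each, so the treatments themselves were not tested. In positive cells the 10 genes summed to a median of 7246, 13969 and 8460 CPM on the 3 dexamethasone plates in day order. In control the median was 12256 CPM on day 1 and 13421 CPM on day 3. These medians are from 4 to 8 cells a plate, chosen by the same genes, and were not tested. After the subtraction for shared indices, the numbers were 4, 4 and 4 cells with dexamethasone on days 1, 2 and 3, against 8, 0 and 5 in control. The difference on day 3 went down to 1 cell.

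The positive cells that dropped out on subtraction were cell 88 of the dexamethasone plate of day 1, cell 69 of the dexamethasone plate of day 3 and cells 59, 63 and 29 of the control plate of day 3. Control cell 63 shared an index with 4 other positive cells of its plate and had 928 CPM of Gata1 and 17588 CPM of the globin Hbb-bs. Dexamethasone cell 69 and control cell 29 were shallow, at 80188 and 66140 counts. Control cell 59 had 387 CPM of Spi1 and 6288 CPM of Lyz2 and kept 1 granule gene after subtraction.

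Single-gene detection shows the same dependence. Mpo had at least 1 count in 60.6%, 52.2% and 51.1% of dexamethasone cells on days 1, 2 and 3, against 84.04%, 4.17% and 63.4% of control cells. In cells thinned to 500000 counts these shares were 47.8%, 40.4% and 42.7% with dexamethasone and 75.9%, 4.82% and 58.2% in control. In cells with at least 100 CPM of Gata1, the erythroid transcription factor, which were most cells of each plate, the shares were 57.1%, 48.8% and 48.2% with dexamethasone and 81.6%, 2.20% and 57.5% in control. Among the cells with less Gata1, 9 of 10, 8 of 10 and 7 of 9 dexamethasone cells had an Mpo count, against 17 of 18, 2 of 5 and 13 of 13 control cells, a larger share on each plate. The median depth over all plates was 1128281 counts in the cells with Gata1 and 928943 in the others. At 100 CPM or more, Mpo was found in 7 of the 498 cells with Gata1 and 38 of the 65 others. At 10 CPM or more, 14, 12 and 17 dexamethasone cells and 38, 1 and 25 control cells carried Mpo, and after subtraction 10, 4 and 5 dexamethasone cells against 14, 1 and 5 control cells. The shares with at least 1 count, also those by Gata1, were not subtracted. At 1 CPM or more, subtraction took the dexamethasone cells with Mpo from 43, 40 and 44 to 10, 4 and 5. The control cells went from 73, 2 and 55 to 14, 2 and 5.

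Most positive cells carried azurophil genes without the later ones. Of the 30, 27 had at least 3 of the 4 azurophil genes at 10 CPM or more and 17 had all 4. None of Lcn2, Ngp, S100a8 and S100a9 reached 10 CPM in 23 of the 30. After the subtraction, 24 of the 25 remaining cells had at least 3 azurophil genes, 15 had all 4 and 20 had none of the later genes. Mpo was the highest of the 4 azurophil genes in CPM in 27 of the 30 cells. Relative to Mpo in the same cell, the median CPM was 7.66% for Ctsg, 5.36% for Prtn3 and 0.202% for Elane. Each of these 3 genes exceeded Mpo in 1 of the 30 cells. On the dexamethasone plate of day 1, 4 of 5 positive cells had at least 3 azurophil genes and none had a later gene at 10 CPM. All 8 positive cells of the control plate of day 1 had at least 3 azurophil genes, and 1 of them, cell 60, had one later gene, S100a8 at 29.3 CPM.

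Later genes came up in a few cells on days 2 and 3. Cell 45 of the dexamethasone plate of day 2 had 26997 CPM of Mpo, 2011 CPM of Elane, 455 CPM of S100a8 and 7.32 CPM of S100a9. Cell 71 of the dexamethasone plate of day 3 carried 8 of the 10 genes, with 13933 CPM of Mpo, 114 CPM of Fcnb, 496 CPM of Lcn2 and 148 CPM of S100a8. It had no count of Ngp or S100a9. This cell alone supplied every Lcn2 count of its plate.

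The 2 highest cells of the control plate of day 3 differed in the order of their granule genes. Cell 57 had 27475 CPM of Mpo, 7094 CPM of Ctsg and 3647 CPM of Elane, with 1766 CPM of S100a8, 1661 CPM of S100a9, 0.634 CPM of Ngp and no Lcn2. Cell 62 carried all 10 genes, with 19063 CPM of Ngp, 5349 CPM of S100a9, 3066 CPM of S100a8, 2830 CPM of Lcn2 and 2464 CPM of Fcnb, and 1983 CPM of Mpo. Summed, the later genes Lcn2, Ngp, S100a8 and S100a9 stood at 30310 CPM and the 4 azurophil genes at 4132 CPM in cell 62. In cell 57 the later genes stood at 3428 CPM and the azurophil genes at 41225 CPM. Of the 5 genes whose highest cell was cell 62, 4 had C/EBP letters in the windows described above and 2, Lcn2 and S100a8, had PU.1 letters. Of the 5 whose highest cell was cell 57, 0 had C/EBP letters and 4 had PU.1 letters, Ms4a3 being the exception. Over all mouse promoter windows, the C/EBP letters were in 9.56% and the PU.1 letters in 23.3%. The genes were split by their own counts, with 1 cell on each side, so this is a description. A link between the letters and the split was not tested.

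**Figure D4:**
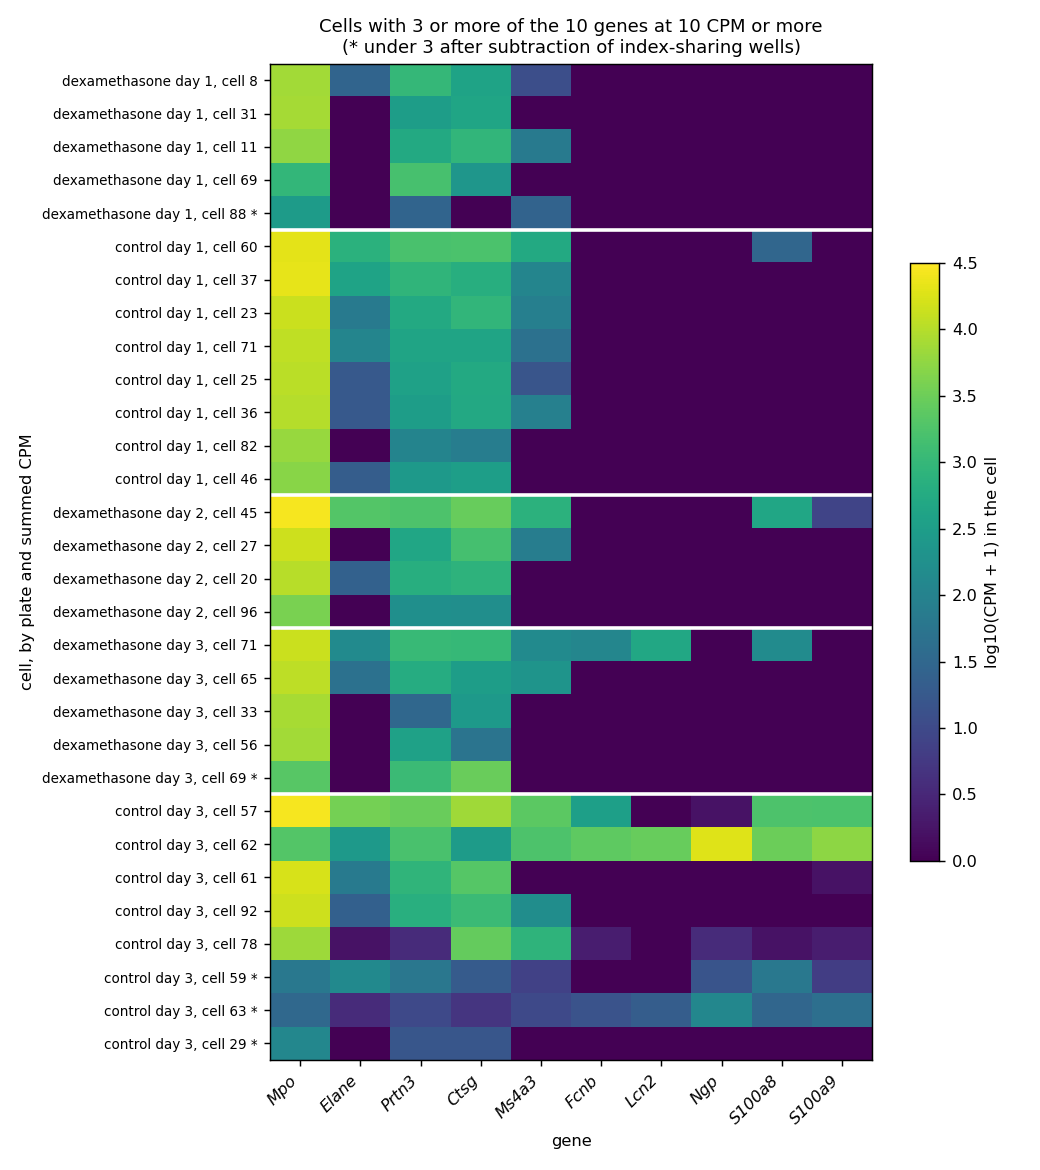
The 30 cells with at least 3 of the 10 granule genes at 10 CPM or more (rows, by plate, each day's dexamethasone cells above its control cells) and the 10 genes (columns), coloured by log10(CPM + 1). Stars mark the 5 cells that fall under 3 genes after the subtraction for shared indices. Cell 62 of the control plate of day 3 is the one row with high values in all 10 columns.

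The Lcn2 of the control plate of day 2 came almost wholly from 1 cell outside the positive cells. Cell 71 of that plate held 3504 Lcn2 counts, 1484 CPM, and had no count of any of the other 9 genes. It had 15.2 CPM of Gata1, 66.9 CPM of the erythroid factor Klf1, 323 CPM of Hbb-bs and 1509 CPM of the transferrin receptor Tfrc. The first 3 of these lay under the 10th percentile of the plate's cells, which was 153 CPM of Gata1, 206 CPM of Klf1 and 449.7 CPM of Hbb-bs, and Tfrc lay above its 10th percentile of 1315 CPM. Spi1, Lyz2 and Fcgr3 had no count in it.

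Genes appeared together in the same cells to different degrees. Of the 24 cells with at least 100 CPM of Ctsg, 24 had Mpo and 23 had Prtn3 at 10 CPM or more. Of the 45 cells with at least 100 CPM of Mpo, 35 had Prtn3, 27 Ctsg and 16 Elane. Outside the 30 positive cells, 17 cells had at least 100 CPM of Mpo, of which 5 were on the dexamethasone plate of day 1 and 8 on the control plate of day 1. Prtn3 reached 10 CPM in 8 of these 17, and Gata1 was under 100 CPM in 12 of them.

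The positive cells were low in erythroid transcripts. Gata1 had a median of 2.64 CPM in the 30 positive cells and 334 CPM in the other 533, and it was under 100 CPM in 27 of the 30 and in 38 of the 533. Of the 25 cells left after the subtraction, 24 were under 100 CPM, with a median of 2.31 CPM. By plate, the median of Gata1 in positive cells was 4.22, 2.66 and 3.38 CPM with dexamethasone on days 1, 2 and 3, against 0.291 CPM on day 1 and 2.93 CPM on day 3 in control. In the other cells it was 320, 261 and 283 CPM with dexamethasone, against 350, 455 and 508 CPM in control. Of the 16 erythroid marker genes, 2 reached 10 CPM in at least 15 of the 30 positive cells, and 12 did so in at least 50% of the other cells. Tfrc was at 10 CPM or more in all 30. The summed erythroid markers ran from 89.6 to 79329 CPM in positive cells, with a median of 677 CPM, against a median of 5946 CPM in the others. The median number of counts was 992251 in positive cells and 1103684 in the others.

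**Figure D5:**
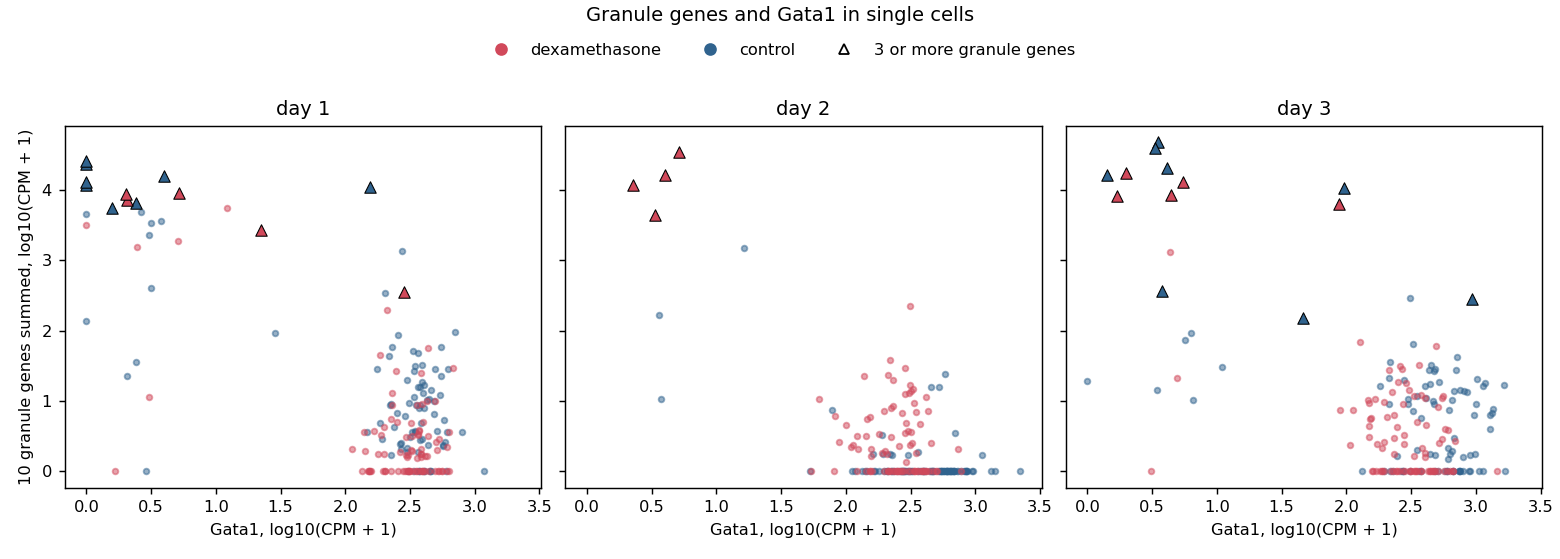
Summed level of the 10 granule genes (log10(CPM + 1), y axis) against Gata1 (log10(CPM + 1), x axis) in single cells, 1 panel for each day, dexamethasone in red and control in blue. Triangles are the 30 cells with at least 3 granule genes, and 27 of them have under 100 CPM of Gata1.

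Regulators and receptors of the granulocyte line were partly present in the same cells. Of 14 genes listed, which include the circadian clock gene Per3, 8 reached 10 CPM in at least 15 of the 30 positive cells. A larger share there than in the other 533 was found for 11. Csf3r, the receptor for granulocyte colony-stimulating factor, did so in 20 of the 30 and in 6 of the 533. Irf8, a factor of the monocyte side of the lineage, did so in 16 and 5. Spi1, which encodes PU.1, was found in 26 of the 30, and also in 191 of the 533, of which 71 were on the dexamethasone plate of day 2. The 3 most abundant of the 14 on the plates, Csf2rb, Runx1 and Myb, were found in 27, 28 and 25 of the positive cells and in 247, 434 and 298 of the others. Csf2ra and Per3 were each found in 15 of the 30, and in 129 and 273 of the others. Per3, one of the 8, thus had no larger share in positive cells than in the others (51.2%). The other 6 were found in fewer positive cells, Cebpd in 11, Cebpa in 10, Cebpe in 5, Klf5 in 4, Gfi1 in 3 and Cebpb in 0. Cebpe, the C/EBP factor of specific granule genes, was at 133 and 156 CPM in cells 57 and 62 of the control plate of day 3 and reached 10 CPM in 0 of the 533. For dexamethasone over the days, edgeR called 0 of the 14, with a median log2 fold change of -0.14. DESeq2 called 1 of the 14, Klf5, at a log2 difference of 1.84 (adjusted p of 0.00028), beside 6.38% of all genes.

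Other genes of neutrophil granules and stages were partly present. Of 30 such genes, 13 reached 10 CPM in at least 15 of the positive cells and 6 in none. The most abundant on the plates were Srgn, the granule proteoglycan serglycin, in 29 of 30 positive cells and 435 of the others, Ctsc, the protease that activates the azurophil proteases, in 25 and 353, and Anxa1, annexin A1, in 21 and 20. Camp, the cathelicidin of specific granules, reached 10 CPM in 1 of the 30 cells and 2 of the 533. Ltf, lactoferrin, did so in 0 of the 30 and 4 of the 533. Of the 27 that passed the filter, edgeR called 0 for dexamethasone, with a median log2 fold change of -0.26 beside 0.07 over all genes. DESeq2 called 1 of them higher, Ctsc, and 2 lower, Anxa1 and Itgb2l, beside 2.55% and 3.83% of all genes.

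Transcripts of the antigens used for depletion were uneven in the positive cells. Fcgr3 and Fcgr2b, which encode CD16 and CD32, reached 10 CPM in 22 and 23 of the 30 and in 14 and 16 of the other 533. Ptprc, the gene of CD45, was found in 28 of the 30 and in 57 of the others. The antibody bound CD45R, a form of CD45 that counts per gene do not separate. Itgam, the gene of CD11b, was at 10 CPM or more in 4 of the 30, all control cells, and in 7 of the other 533, and was highest in cell 62 of the control plate of day 3 at 626 CPM. A second row of the counts with this symbol, which the annotation gives another name, was not used. Ly6g was found in 1 of the 30 at 11.2 CPM, and Ly6a (Sca-1) and Cd3e in 0. Itga2b (CD41) was found in 10 of the 30 and in 294 of the other 533.

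Markers of other cell types moved with the granule genes in part. Of 16 monocyte and macrophage markers, none reached 10 CPM in 15 or more of the positive cells and 7 reached it in none of them. At least 3 of these 16 were present in 4 of the 30 cells and 2 of the other 533. Their summed level ran from 0 to 10490 CPM in positive cells, with a median of 42.5 CPM, and F13a1 reached 7356 CPM in 1 of them. At least 3 of 8 mast and basophil markers were present in 8 of the 30 and 9 of the 533. Cpa3, a mast cell protease, and Mcpt8, a basophil protease, were each at 10 CPM or more in 10 of the 30 cells. Of the 533, 9 had Cpa3 and 1 had Mcpt8. Hdc was found in 17 of the 30 and 128 of the 533, and Gata2 in 16 and 267. Summed over all 8 mast and basophil markers, the median was 96.4 CPM in positive cells and 28.6 CPM in the others. Fcer1a had no count in the positive cells and reached 10 CPM in 0 of the 533. No positive cell had 3 genes present from the lists of 4 eosinophil, 8 lymphoid and 6 hepatocyte markers. Their summed levels reached 194 CPM for eosinophil, 11.6 CPM for lymphoid and 90.3 CPM for hepatocyte markers in positive cells, and 128, 298 and 1197 CPM in the others. C1qa of macrophages, Cd79a of B cells and Alb of hepatocytes had no count in positive cells, and Epx of eosinophils reached 1.49 CPM. Other genes of these lists were present there. At 10 CPM, 9 of the 16 monocyte and macrophage markers had a larger share in positive cells than in the others. So had 6 of 8 mast and basophil markers and 3 of 8 megakaryocyte markers. The same held for 1 of 4 eosinophil, 1 of 8 lymphoid and 3 of 6 hepatocyte markers. Csf1r was in 11 of the 30 and 26 of the 533, Ly6c2 in 6 and 0, and Trf of the hepatocyte list in 11 and 4. At least 3 of 8 megakaryocyte markers were present in 9 of the 30 and 110 of the 533. The part of these cell types in the granule-gene levels was not tested.

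The genes most like the 10 in their pattern over cells were Clec12a, Atp8b4, Mtus1, Plac8, Hk3, Clec5a, Serpinb1a, Csf3r, Anxa3 and Tyrobp. Likeness was the Pearson correlation of log2(CPM + 1) with the mean of the 10 genes over 563 cells, centred within plates, among 16216 genes. It ran from 0.84 for Clec12a, a myeloid inhibitory lectin receptor, to 0.78 for Tyrobp, the adaptor DAP12. The points share plates, depth and the index sharing described above, so these values are given without a test. Clec12a was at 10 CPM or more in 20 of the 30 positive cells and 1 of the other 533, and Serpinb1a, an inhibitor of the granule proteases, in 27 and 14. Of the 10 genes themselves, 9 had a count in at least 20 cells, as this ranking asked, and Fcnb did not. Their correlation with the mean that holds them ran from 0.87 for Prtn3 to 0.43 for Ngp.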

How the data were processed

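The authors deposited whole-number read counts per gene and well, made with STAR 2.4 and featureCounts on GRCm38 per the submitters' processing notes. Of 576 value columns, 575 matched a labelled well and 1 was not used. The header line holds 1 cell more than the value lines. Its only empty cell, before the first well, was removed, which decides the well of every value. Wells with at least 50000 counts, 1500 genes and at most 20% mitochondrial counts were kept (563), leaving out 12. Counts were summed per plate, and 20040 genes were tested with edgeR 4.0.16 (TMM scaling, day and dexamethasone as terms, Benjamini-Hochberg adjustment, threshold 0.05). DESeq2 1.42.0 and limma 3.58.1 (pseudocount 0.5) were alternatives, and all 3 were tested on simulated data. The simulation held no dexamethasone difference that varied between days, so it does not bear on the calls reported here. CPM of a plate uses the TMM-scaled total, and CPM of a cell its own total. The 6 plate sums are the samples, with 1 plate per day and treatment, so plate and treatment cannot be told apart within a day. The fit leaves 2 residual degrees of freedom, which hold how the dexamethasone difference varies between days. Standard errors and p-values therefore measure that variation, and a spread between plates, which may be technical, cannot be separated from it. Folds against a plate without a count use 3 counts per plate. The members and lists were chosen with earlier results of these data known. Of the lists, the 3 most abundant genes and the depletion antigens were named by rule, and other list genes were named after their values were seen. One gene of the depletion list is not reported here. The index pairs come from the labels.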

Additional observations from a re-analysis of the deposited data

Results flagged for a closer look

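For 8 of the 10 genes the ratio of the dexamethasone plate to the control plate pointed up on day 2 and down on another day. The difference between the days was not tested, since each ratio has 1 plate on each side. As the log2 ratio of day 2 minus that of day 1, it was 9.59 for Mpo and 14.8 for Elane. As the log2 ratio of day 2 minus that of day 3, it was 8.05 for Prtn3, 13.88 for Ctsg, 8.95 for Ms4a3, 12.11 for Ngp, 12.23 for S100a8 and 12.61 for S100a9. Plates without a count were set to 3 counts, which enters the day 2 ratios of Elane, Ctsg, Ngp, S100a8 and S100a9 and the day 3 ratio of S100a9. The day 2 dexamethasone plate held 14 counts of Ngp and 7 of S100a9.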

How the results depend on the processing

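No paired analysis was possible because the numbers that groups share in the labels are well numbers of single cells, and the tests use 1 sum per plate. No setting of edgeR or limma called a gene, and DESeq2 called 1279 genes for dexamethasone, 2112 for day 3 and 1550 for day 2 against day 1. Leaving out each plate in turn, the log2 fold change for dexamethasone ranged from -1.69 to 3.04 for Mpo, -5.21 to 1.71 for Elane, -1.53 to 2.33 for Prtn3, -2.59 to 3.495 for Ctsg, -3.70 to 0.71 for Ms4a3, -9.96 to 5.83 for Ngp and -5.43 to 1.75 for S100a8. Lcn2 ranged from -13.72 to -2.69 and Fcnb from -4.79 to -4.75. Without a day 3 plate Fcnb could not be fitted, since all its counts are on day 3. Mpo was at 0.36 in thinned cells, and under limma on mean CPM Mpo was at 1.87 and Ctsg at 1.32. Prtn3, near 0, was at -0.017 with DESeq2's size factors, -0.077 at 200000 counts or more per cell, -0.25 without the highest cell of each plate, -0.99 with no day term and -0.0031 by DESeq2. The mean difference in the share of positive cells, dexamethasone minus control, was -0.709 percentage points (SD 4.38 over 3 days). It was -8.46 points when 1 gene sufficed, -8.57 points at 1 CPM, and -3.24 to 0.578 points leaving out each day, with 0.532 points without day 1. After the subtraction for shared indices it was -0.343 points and at 200000 counts or more per cell -1.04 points, both settings chosen after seeing the data. The mean log2 ratio of the summed genes was 0.02, and -1.96 to 1.05 leaving out each day, the lowest without day 2. The cause of these changes was not tested.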
